A study of Mus musculus with 15 samples.

Results

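10 genes of peptide signalling are described here across nuclei of the mouse ventral tegmental area: the orexin receptors Hcrtr1 and Hcrtr2, the neurotensin receptors Ntsr1 and Ntsr2, the corticotropin-releasing hormone (CRH) receptor Crhr1 and the CRH-binding protein Crhbp, and the receptors for leptin (Lepr), ghrelin (Ghsr), insulin (Insr) and melanocortins (Mc3r). They were taken by gene symbol, 10 of the 35976 genes listed in the deposited count table, and all 10 had enough counts to be tested in both fits. Their lowest count in any library was 97.

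Dopamine neurons of the ventral tegmental area drive reward and motivation, and these genes are among those through which hunger, arousal and stress signals reach them. Orexin, neurotensin and CRH are peptides released by neurons, and their receptors act through G proteins, whereas leptin, ghrelin and insulin arrive from the blood. Leptin and insulin receptors signal through kinases, while the ghrelin and melanocortin receptors are G-protein coupled.

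All mice were males, given as 8 to 12 weeks old before the procedures, heterozygous for a Cre knock-in at the dopamine transporter locus (DAT-Cre, strain B6.SJL-Slc6a3tm1.1(cre)Bkmm/J). All received the Cre-dependent virus AAV5-DIO-KASH-HA in the ventral tegmental area 14 days before behaviour began, so that nuclei of infected Cre cells carried an HA tag. Nuclei were sorted by HA and DAPI, and each library came from tissue of 2 pooled mice. All mice then had 7 days of operant food training. In all, 4 libraries of HA-positive (dopaminergic) nuclei were taken after the last food session (FT), 3 after the last session of the cocaine schedule that followed (MN) and 4 after 21 further days of home-cage abstinence (CRV). Cocaine was self-administered in 1-hour sessions at 0.3 mg/kg per infusion for 5 days and then at 1.0 mg/kg per infusion for 10 days, by the MN and CRV mice. A further 4 libraries of HA-negative (non-dopaminergic) nuclei came from the FT stage only. Stage goes with age: the MN mice were older than the FT mice by the catheter surgery and the cocaine days, and the CRV mice by 21 days more.

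Total counts ran from 25813697 to 59046618 per library. Genes detected numbered 14841 to 19750 in the dopaminergic libraries and 22733 to 23886 in the non-dopaminergic ones. Detection thus goes with population, and its part in the zeros and lower calls below was not tested. The 10 dopamine neuron markers summed to 5803 to 12400 CPM (counts per library total, after TMM scaling) in the 11 dopaminergic libraries and to 351.3 to 536.3 in the non-dopaminergic libraries. The labels call the HA-negative nuclei neurons, but their 8 oligodendrocyte markers summed to 9455 to 22950 CPM, against 190.7 to 259 for 3 GABA neuron markers and 374.7 to 642.6 for 3 glutamate neuron markers. In dopaminergic libraries oligodendrocyte markers summed to 1788 to 2818 CPM at FT, 1162 to 1745 at MN and 1136 to 2006 at CRV, with no overlap between FT and MN. Food-trained dopaminergic replicate 3 had the lowest total and the lowest mean correlation with its own group (0.796). The slope of log2 CPM on a gene's GC percent ran from -0.038 to 0.0325 over the 15 libraries. The 3 maintenance libraries and non-dopaminergic replicate 2 had the 4 lowest slopes, from -0.038 to -0.0226, and food-trained dopaminergic replicate 2 came next at -0.0166, so there was no clear gap. Among the dopaminergic libraries a low slope and the maintenance stage cannot be told apart.

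Windows upstream of the annotated starts are shown for both neurotensin receptor genes, since these paralogs differed between the populations in opposite directions, and for Crhbp and Ghsr, the other called members with at least 100 bases lying before all annotated starts. They are RefSeq sequences (build GRCm38.p6, mouse), 5′ to 3′ on the gene's own strand, with each CG dinucleotide in capitals. RefSeq promoters matched 9 of the 10 genes by symbol. Ntsr1 (chr2:180499726-180499975, plus strand) had 18 CG in 250 bases, Ghsr (chr3:27371101-27371350, plus strand) 11 in 250, Crhbp (chr13:95444925-95445081, minus strand) 6 in 157 and Ntsr2 (chr12:16653220-16653381, plus strand) 2 in 162.
Ntsr1: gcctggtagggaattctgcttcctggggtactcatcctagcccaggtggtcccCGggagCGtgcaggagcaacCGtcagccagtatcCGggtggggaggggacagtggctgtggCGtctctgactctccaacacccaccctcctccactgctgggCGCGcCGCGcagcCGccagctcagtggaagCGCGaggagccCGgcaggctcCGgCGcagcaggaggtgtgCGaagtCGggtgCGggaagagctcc
Ntsr2: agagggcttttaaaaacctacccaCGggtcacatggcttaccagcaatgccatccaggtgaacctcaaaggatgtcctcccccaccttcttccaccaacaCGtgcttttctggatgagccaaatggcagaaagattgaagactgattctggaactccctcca
Crhbp: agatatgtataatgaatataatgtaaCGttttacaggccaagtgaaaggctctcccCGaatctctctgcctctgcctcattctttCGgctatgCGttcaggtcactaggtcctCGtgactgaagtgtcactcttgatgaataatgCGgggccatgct
Ghsr: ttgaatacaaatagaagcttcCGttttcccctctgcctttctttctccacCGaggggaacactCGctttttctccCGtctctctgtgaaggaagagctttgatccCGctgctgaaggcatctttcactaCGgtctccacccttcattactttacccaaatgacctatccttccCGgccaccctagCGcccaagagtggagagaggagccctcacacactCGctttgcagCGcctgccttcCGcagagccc
Of 32851 listed promoters cut to the same window, as many CG were held by 21.67% for the Ntsr1 count, 35.57% for Ghsr, 33.76% for Crhbp and 69.0% for Ntsr2. The median over all promoters was 6 CG in 250 bases and 3 in the windows of 157 and 162 bases. CG counts describe the sequence alone, as no methylation or binding was measured in these libraries.

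The first comparison asks in which population of food-trained mice each gene's nuclear RNA was higher, 4 dopaminergic against 4 non-dopaminergic libraries. Ntsr1, Ghsr, Crhbp and Lepr were higher in dopaminergic nuclei, from 3.06-fold to 13.8-fold, and Ntsr2 was 5.03-fold lower. Those 5 of 10 had an adjusted p under 0.05 (edgeR quasi-likelihood F-test, two-sided, Benjamini-Hochberg over all genes tested), where 12.8 percent of the 19786 genes tested passed. Higher calls made up 3.63 percent of genes tested and 4 of the 10, and lower calls 9.17 percent and 1 of the 10. The median log2 fold change was 1.51 over the 10 genes and -0.21 over all genes tested. The groups did not overlap in CPM for 7 of 10, against 26.0 percent of genes. In bulk nuclei, fewer cells of a type and less RNA per cell cannot be told apart.

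**Figure D1:**
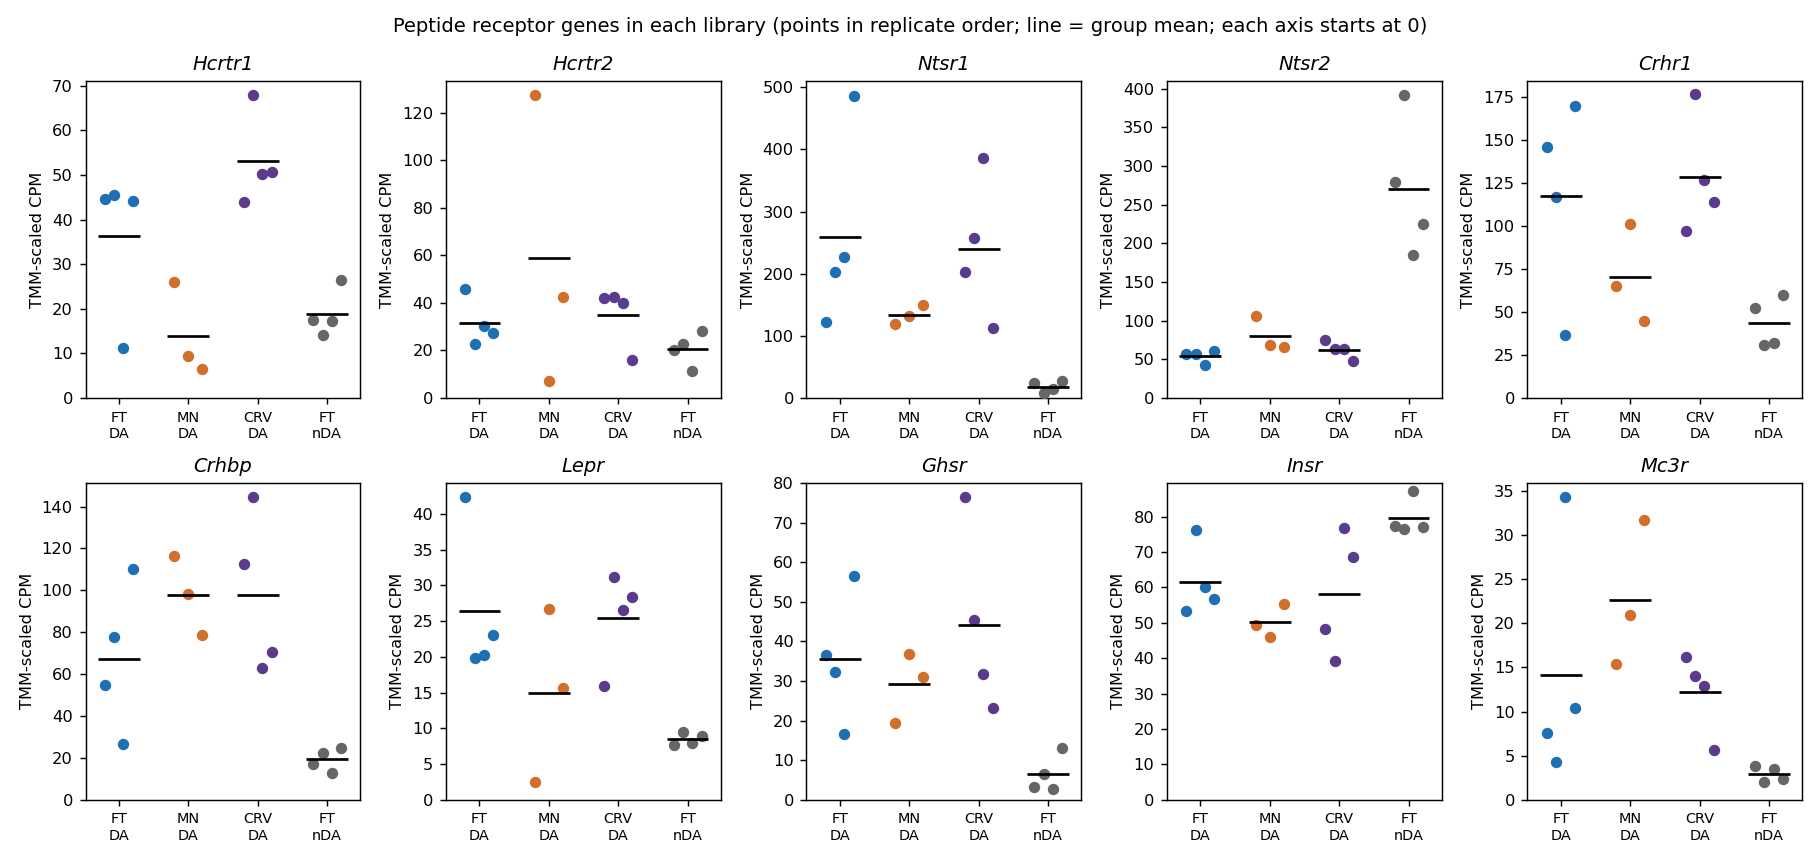
TMM-scaled CPM of each gene in every library, one panel per gene with its own axis from 0 and a line at each group mean; FT DA, MN DA and CRV DA are dopaminergic nuclei after food training, maintenance and abstinence, and FT nDA is non-dopaminergic nuclei after food training. Ntsr1 lies at 112.9 to 486 CPM in all 11 dopaminergic libraries and at 7.98 to 27.2 in the non-dopaminergic ones, and Ntsr2 is placed the other way round.

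Hcrtr1 encodes a receptor that prefers orexin-A, and lies at chr4:130130217-130139359 (minus strand, GENCODE M21 on GRCm38, as for the genes that follow). Its level in food-trained dopaminergic replicates 1 to 4 was 44.7, 45.5, 11.2 and 44.1 CPM, and in the non-dopaminergic replicates 17.4, 14.0, 17.2 and 26.4 CPM. Replicate 3 of the dopaminergic group lay below every non-dopaminergic library and the other 3 lay above them all. The log2 difference of 0.93 (SE 0.46) had an edgeR adjusted p of 0.258, and without dopaminergic replicate 3 it was 1.26 with an edgeR adjusted p of 0.0155. Hcrtr2, whose receptor binds both orexins, lies at chr9:76225880-76323856 (minus strand). It had 45.8, 22.5, 30.3 and 27.3 CPM in dopaminergic and 20.3, 22.5, 11.4 and 28.1 CPM in non-dopaminergic nuclei, and these ranges overlapped. Its log2 difference was 0.59 (SE 0.36, edgeR adjusted p = 0.378). An antisense gene, Gm27234, overlaps Hcrtr2 by 1270 bases, and their reads cannot be told apart if strand was not used.

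Ntsr1 encodes the high-affinity neurotensin receptor, which dopamine neurons are known to carry, and lies at chr2:180499976-180544980 (plus strand). Dopaminergic replicates 1 to 4 held 121.7, 202.5, 226.2 and 486 CPM, and non-dopaminergic replicates 24.5, 7.98, 14.2 and 27.2 CPM. Every dopaminergic library was above every non-dopaminergic one, although the dopaminergic values themselves spread widely. The difference was 13.8-fold (log2 3.79, SE 0.54, 95% interval 5.9 to 32.5-fold, edgeR adjusted p = 0.0067). Ntsr2, the second neurotensin receptor gene and one known from astrocytes, lies at chr12:16653382-16660227 (plus strand). It held 56.8, 57.0, 43.3 and 60.8 CPM in dopaminergic and 279.3, 392.5, 185.1 and 224.5 CPM in non-dopaminergic nuclei, again without overlap but with the order turned. Its log2 difference was -2.33 (SE 0.26, edgeR adjusted p = 0.00258). Per kilobase of the longest transcript, Ntsr1 was 1.51 to 5.63 times Ntsr2 in each food-trained dopaminergic library and 0.0143 to 0.0853 times in each non-dopaminergic one.

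Astrocyte markers moved with Ntsr2. The 9 markers summed to 814.8 to 1065 CPM in the food-trained dopaminergic libraries and to 1816 to 3546 in the non-dopaminergic ones, with none of the 9 at 0 in any library. Ntsr2 divided by that sum was 0.0531 to 0.0619 in the dopaminergic and 0.0764 to 0.111 in the non-dopaminergic libraries, ranges that do not overlap. Oligodendrocyte markers (1788 to 2818 against 9455 to 22950 CPM) and microglia markers (525.2 to 948.6 against 1580 to 3091 CPM) lay in the same order. Their part in the Ntsr2 difference was not tested.

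**Figure D2:**
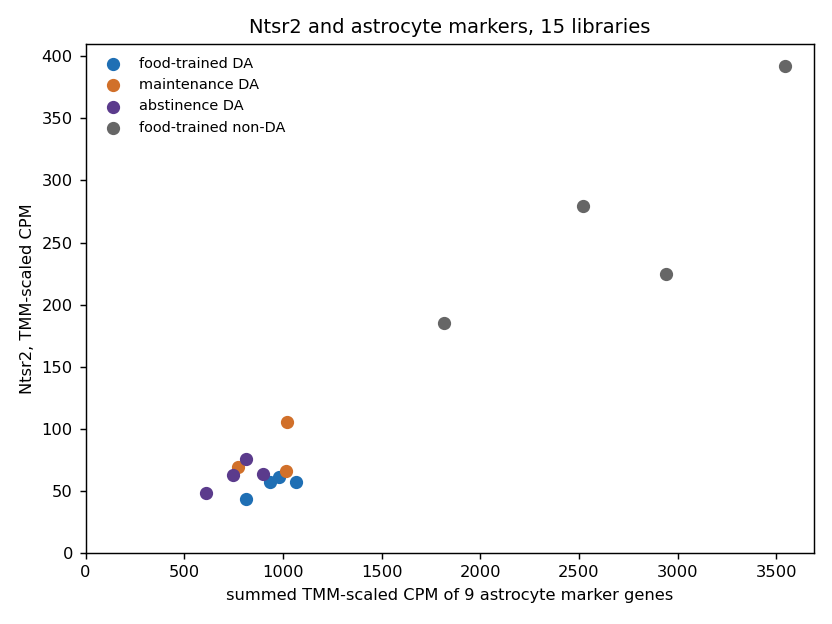
Ntsr2 (vertical axis) against the summed level of 9 astrocyte markers (horizontal axis), both in TMM-scaled CPM, with one point per library coloured by group. The 4 non-dopaminergic libraries sit at 185.1 to 392.5 CPM of Ntsr2 and at marker sums from 1816, and all 11 dopaminergic libraries sit lower on both axes.

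Crhr1 encodes the main CRH receptor of the brain and lies at chr11:104132855-104175523 (plus strand). It held 146, 116.8, 36.4 and 169.6 CPM in dopaminergic and 52.1, 30.6, 31.9 and 59.9 CPM in non-dopaminergic nuclei. Dopaminergic replicate 3 alone fell among the non-dopaminergic values. The log2 difference was 1.41 (SE 0.45, edgeR adjusted p = 0.080). DESeq2 gave an adjusted p of 0.0147, and edgeR without dopaminergic replicate 3 gave 0.0109. Crhbp encodes the secreted protein that binds CRH and urocortin, and lies at chr13:95431371-95444924 (minus strand). It held 54.7, 77.8, 26.4 and 110 CPM in dopaminergic and 16.8, 22.2, 13.0 and 24.8 CPM in non-dopaminergic nuclei, a 3.45-fold difference without overlap (log2 1.79, SE 0.43, edgeR adjusted p = 0.0247). Crhbp passed the threshold in 5 of 8 fits that each left out 1 library, with edgeR adjusted p from 0.0098 to 0.0751, and the fits that lost it lacked non-dopaminergic replicate 1, 2 or 3.

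Ghsr encodes the ghrelin receptor and lies at chr3:27371351-27378010 (plus strand). It held 36.5, 32.2, 16.6 and 56.4 CPM in dopaminergic and 3.12, 6.57, 2.77 and 13.1 CPM in non-dopaminergic nuclei, so that the lowest dopaminergic library was just above the highest of the others. The difference was 5.48-fold (log2 2.46, SE 0.61, edgeR adjusted p = 0.0286), and 4 of the 8 fits without 1 library kept it past the threshold (edgeR adjusted p from 0.0153 to 0.0797). It was lost without dopaminergic replicate 4 and without non-dopaminergic replicate 1, 2 or 3. Without non-dopaminergic replicate 4 the log2 difference was 3.07, the highest of the 8 fits, and the lowest was 2.13. Lepr, the leptin receptor at chr4:101717404-101815352 (plus strand), held 42.4, 19.9, 20.3 and 23.1 CPM in dopaminergic and 7.60, 9.49, 7.89 and 8.97 CPM in non-dopaminergic nuclei. The 3.06-fold difference (log2 1.62, SE 0.38, edgeR adjusted p = 0.0227) passed in 5 of 8 such fits, with edgeR adjusted p from 0.0135 to 0.0751. The fits without non-dopaminergic replicate 1, 3 or 4 lost it, as did the fit of all 15 libraries (edgeR adjusted p = 0.0690) and the replicate block (edgeR adjusted p = 0.149).

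Mc3r encodes a melanocortin receptor of the feeding circuits and lies at chr2:172248492-172251114 (plus strand). It was at 7.51, 4.31, 34.3 and 10.4 CPM in dopaminergic and at 3.83, 2.01, 3.49 and 2.39 CPM in non-dopaminergic nuclei. The groups did not overlap, but replicate 3 was more than 3 times any other food-trained dopaminergic library, and the log2 difference of 2.24 (SE 0.76) had an edgeR adjusted p of 0.098. Without that library the difference was 1.34 (edgeR adjusted p = 0.172), and DESeq2 on all 8 libraries gave an adjusted p of 0.0104. Insr, the insulin receptor at chr8:3122061-3279617 (minus strand), was at 53.2, 76.3, 60.1 and 56.9 CPM in dopaminergic and 77.5, 76.6, 87.2 and 77.0 CPM in non-dopaminergic nuclei. These ranges did not overlap, yet the highest dopaminergic value nearly met the lowest of the others, and the log2 difference of -0.39 (SE 0.18) had an edgeR adjusted p of 0.220. The antisense gene Gm16180 and the pseudogene Vmn2r-ps88 overlap Insr by 938 and 871 bases.

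**Figure D3:**
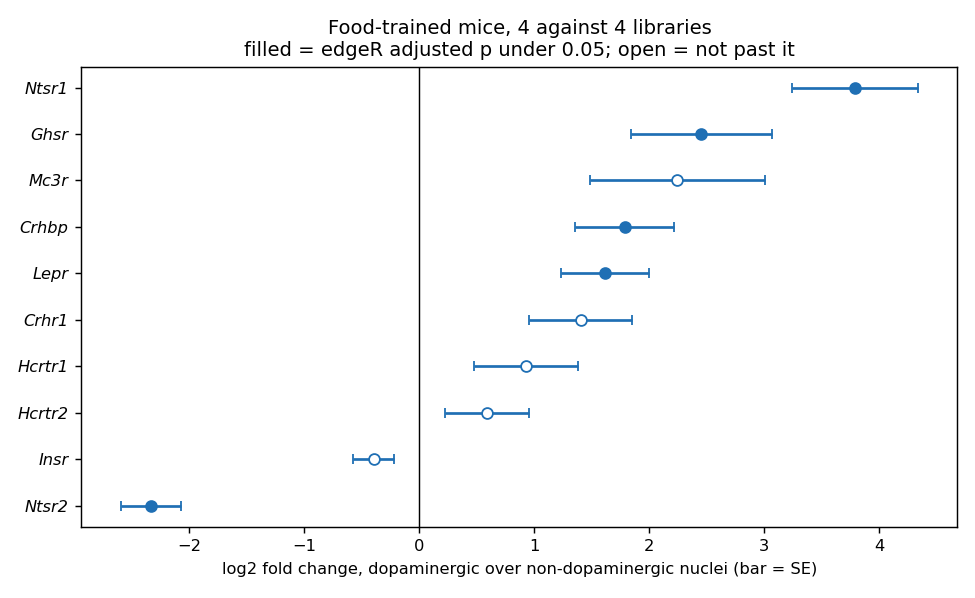
Log2 fold change of each gene between dopaminergic and non-dopaminergic nuclei of food-trained mice (4 against 4 libraries), with bars for the SE; filled points have an edgeR adjusted p under 0.05. Ntsr1 at 3.79, Ghsr, Crhbp and Lepr are filled to the right of 0, and Ntsr2 at -2.33 is filled to the left.

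Levels of different genes were compared per kilobase of each gene's longest transcript. In food-trained dopaminergic nuclei the order was Ntsr1 (mean 66.2 CPM per kb), Crhr1 (47.6), Crhbp (37.8), Ntsr2 (19.8), Hcrtr1 (14.9), Hcrtr2 (8.38), Ghsr (7.99), Insr (6.59), Mc3r (5.39) and Lepr (4.77), and every gene's range overlapped that of the next. After maintenance Crhbp led with 55.0 CPM per kb, without overlapping Ntsr1 at 34.2, and after abstinence Ntsr1 (61.3), Crhbp (54.9) and Crhr1 (52.3) led with overlapping ranges. In non-dopaminergic nuclei Ntsr2 was far ahead at 98.1 CPM per kb, with a range of 67.2 to 142.4 that did not overlap that of Crhr1 (mean 17.7), and Mc3r was last at 1.12.

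**Figure D4:**
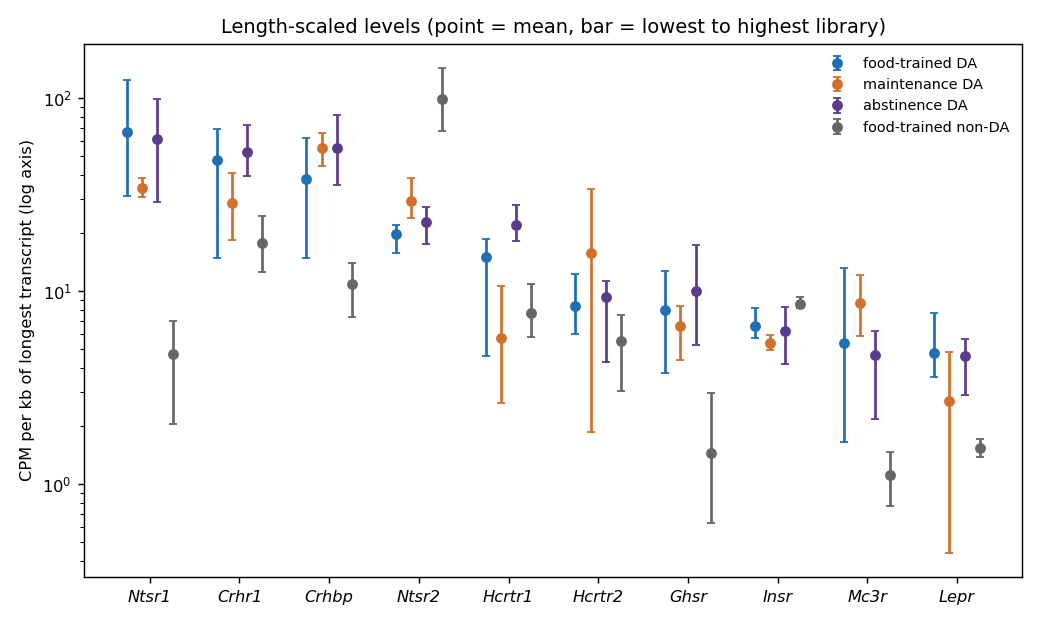
Mean level per kilobase of longest transcript (CPM per kb, logarithmic axis) of each gene in the 4 groups, with bars from the lowest to the highest library. The non-dopaminergic point is the lowest of the 4 for Ntsr1, Hcrtr2, Crhr1, Crhbp, Ghsr, Mc3r and Lepr and the highest for Ntsr2 and Insr.

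The other genes of these pathways, 65 in 5 lists, were counted in the same comparison, where 3.63 percent of all genes tested were called higher and 9.17 percent lower. Of 15 peptide ligands 9 were tested, and 2 were lower in dopaminergic nuclei: Hcrt, the orexin precursor, and Igf2, a growth factor of the insulin family. Hcrt had 0 counts in all 4 dopaminergic and 1275, 18, 1030 and 27 counts in the non-dopaminergic libraries (edgeR adjusted p = 0.0287), so that replicates 1 and 3 hold most of its counts, and no fold is given. Igf2 held 4.06 to 15.0 against 25.7 to 37.8 CPM (log2 -2.24, edgeR adjusted p = 0.0181). Of 14 related receptors and partners 12 were tested, 3 higher and 3 lower. Sorl1, a sorting receptor related to sortilin, was higher by 0.85 on the log2 scale (edgeR adjusted p = 0.0157), with 487.5 to 704.9 against 279.8 to 376.2 CPM. Igf2r, which clears Igf2 into lysosomes, was higher by 1.15 (edgeR adjusted p = 0.0305), with 75.1 to 177.8 against 50.0 to 60.2 CPM. Leprotl1, a relative of the leptin receptor trafficking protein, was higher by 0.79 (edgeR adjusted p = 0.0382), with 175.8 to 254 against 89.6 to 148.8 CPM.

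The lower ones of that list were Leprot, which regulates leptin receptor trafficking and had a log2 difference of -1.47 (edgeR adjusted p = 0.0122), Insrr, an insulin receptor relative, and Mrap, a melanocortin receptor accessory protein. Leprot lay at 17.6 to 32.2 CPM in dopaminergic and 42.2 to 93.5 in non-dopaminergic nuclei, opposite in direction to Lepr, with which it shares 0 exon bases. Insrr and Mrap had 0 counts in all 4 food-trained dopaminergic libraries and 51 to 89 and 16 to 34 counts in the others. That makes them at least 18.0-fold and 7.77-fold lower against a floor of 3 counts per library. Like Hcrt above and Socs3 below, they passed the count filter through the non-dopaminergic libraries alone, so only a lower call was possible. In abstinence replicate 4 Mrap had 38 counts (0.924 CPM, against 0.363 to 0.704 in the non-dopaminergic libraries). In leptin signalling 1 of 8 tested genes passed, where 12.8 percent of all genes did. Socs3, the feedback inhibitor of the leptin receptor, was at 0 counts against 35 to 218, at least 37.4-fold lower in food-trained mice. Abstinence replicate 2 held 274 counts of Socs3 (5.08 CPM, against 0.725 to 4.42 in the non-dopaminergic libraries), while every other dopaminergic library had 0. None of 19 insulin signalling genes and none of 9 Gq and Gs coupling genes passed edgeR's test, with 2 and 0 at an unadjusted p under 0.05, where 4813 of all 19786 genes were. Medians of the lists ran from -0.413 (insulin signalling) to -0.201 (Gq and Gs coupling), beside -0.21 over all genes. The glial marker sums given above for Ntsr2 were higher where these genes were higher in non-dopaminergic nuclei, and their part in those differences was not tested.

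The next comparisons ask whether the genes differed in dopaminergic nuclei between the stages. None of the 10 had an edgeR adjusted p under 0.05 in any of them. The share of genes called was 0.131 percent for maintenance against food training, 0 percent for abstinence against food training, 0.178 percent for abstinence against maintenance and 0.0839 percent for any difference among the stages. At an unadjusted p under 0.05 there was 1 of 10, 0, 1 and 1 in that order, in each case Hcrtr1. Over all 19060 genes tested the same threshold held 2215, 819, 1890 and 1496, so that 1 of 10 is near the background. DESeq2 called 1 of 10, Hcrtr1, between abstinence and maintenance, where it called 792 genes in all against 34 by edgeR. It called 0 of the 10 in the other comparisons between stages. limma-voom called 0 in all of them. The first 2 comparisons share the food-trained libraries and the last shares libraries with both, so the values are given side by side.

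Hcrtr1 was at 44.7, 45.5, 11.2 and 44.1 CPM after food training, 25.9, 9.44 and 6.42 after maintenance, and 44.0, 68.0, 50.2 and 50.7 after abstinence. All 3 maintenance libraries were below all 4 abstinence libraries, while food-trained replicate 3 lay among the maintenance values. Abstinence over maintenance was 3.81-fold (log2 1.93, SE 0.56, 95% interval 0.725 to 3.14) with an unadjusted p of 0.00414 and an edgeR adjusted p of 0.271. Leaving out 1 library gave log2 values from 1.59 (without maintenance replicate 3) to 2.75 (without maintenance replicate 1). DESeq2 gave 1.90 with an adjusted p of 0.0230, and edgeR's adjusted p over the alternatives of this comparison ran from 0.125 to 0.9999. Maintenance over food training was -1.38 (SE 0.55, edgeR adjusted p = 0.395), and ran from -2.20 to -1.04 with 1 library left out. Abstinence over food training was 0.55 (SE 0.49, edgeR adjusted p = 0.999974). Hcrtr1 had the highest transcript GC of the 10, at 58.71%, and the maintenance libraries had GC slopes of -0.0378, -0.0226 and -0.038. The part of base composition in the stage values was not tested.

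Hcrtr2 after maintenance had widely scattered values: 127.3, 6.97 and 42.4 CPM, against 22.5 to 45.8 after food training and 16.1 to 42.3 after abstinence. Its log2 difference was 0.91 (SE 0.66, edgeR adjusted p = 0.713) for maintenance over food training. Without maintenance replicate 1 that value was -0.35. Lepr had the reverse pattern in the same library, at 2.44 CPM in maintenance replicate 1 and 26.8 and 15.6 in the other two, against 19.9 to 42.4 after food training and 16.0 to 31.1 after abstinence. Its log2 difference of -0.83 (SE 0.64, edgeR adjusted p = 0.742) was -0.32 without that library. Hcrtr2 and Lepr have the lowest transcript GC of the 10, 39.64% and 41.65%.

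Ntsr1 was at 119.4, 132 and 149.9 CPM after maintenance and at 202.5, 258, 386.5 and 112.9 after abstinence, beside 121.7 to 486 after food training. The maintenance values lay at the lower end of both other groups and overlapped them. Maintenance over food training was -0.95 (SE 0.45, edgeR adjusted p = 0.441). Abstinence over food training was -0.11 (SE 0.41, 95% interval -0.996 to 0.772). Ntsr2 was at 105.5, 69.0 and 66.1 CPM after maintenance, all above the food-trained range of 43.3 to 60.8, the 1 of 10 genes without overlap in that comparison, where 8.50 percent of genes had none. Its log2 difference was 0.56 (SE 0.27, edgeR adjusted p = 0.444). A fit of all 15 libraries with a term shared by the maintenance libraries and non-dopaminergic replicate 2 turned the direction of both for maintenance over food training, to 0.51 for Ntsr1 and -0.22 for Ntsr2, but that term takes its size from non-dopaminergic replicate 2 alone. Abstinence values of Ntsr2 were 75.2, 62.8, 63.6 and 48.4 CPM. The astrocyte marker sum was 773.5 to 1020 CPM after maintenance and 609.9 to 901.6 after abstinence, and Ntsr2 over that sum was 0.065 to 0.103 and 0.0706 to 0.0928. Oligodendrocyte markers, at 1162 to 1745 CPM after maintenance, lay below their food-trained range of 1788 to 2818. The part of either marker list in the stage values was not tested.

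Crhr1 was at 65.2, 100.8 and 44.9 CPM after maintenance and at 97.1, 176.8, 126.7 and 113.8 after abstinence, with 36.4 to 169.6 after food training. Abstinence over maintenance was 0.87 (SE 0.44, edgeR adjusted p = 0.541). Crhbp was at 116.4, 98.4 and 78.8 CPM after maintenance and 112.5, 144.8, 62.9 and 70.7 after abstinence, and these group means, 97.9 and 97.7 CPM, were nearly equal. The interval of that log2 difference, -0.911 to 0.901, still spans nearly 2-fold in either direction. Crhr1 per kilobase was 0.996 to 1.93 times Crhbp in each food-trained dopaminergic library and 0.405 to 0.741 times in each maintenance library, with 0.624 to 1.46 after abstinence.

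Ghsr was at 19.4, 36.8 and 31.1 CPM after maintenance and 76.4, 45.5, 31.9 and 23.1 after abstinence, inside or overlapping the food-trained range of 16.6 to 56.4. Its log2 difference was -0.28 (SE 0.48) for maintenance and 0.32 (SE 0.44) for abstinence, each over food training. Insr was at 49.5, 46.0 and 55.3 CPM after maintenance and 48.3, 39.2, 76.7 and 68.6 after abstinence, and had among the narrowest intervals: -0.916 to 0.333 for maintenance and -0.655 to 0.494 for abstinence, each over food training on the log2 scale. Mc3r was at 15.4, 20.9 and 31.7 CPM after maintenance and 16.2, 14.0, 12.9 and 5.69 after abstinence, and its log2 difference between these, -0.90 (SE 0.70), had an edgeR adjusted p of 0.843. Abstinence and food training overlapped for all 10 genes, while 3.32 percent of all genes tested had groups without overlap. Abstinence and maintenance lacked overlap for 1 of 10, Hcrtr1, and for 12.1 percent of all genes. The 10 genes' median log2 fold change was -0.288, 0.144 and 0.407 in the 3 pairs, beside -0.00723, 0.0428 and 0.0525 over all genes.

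**Figure D5:**
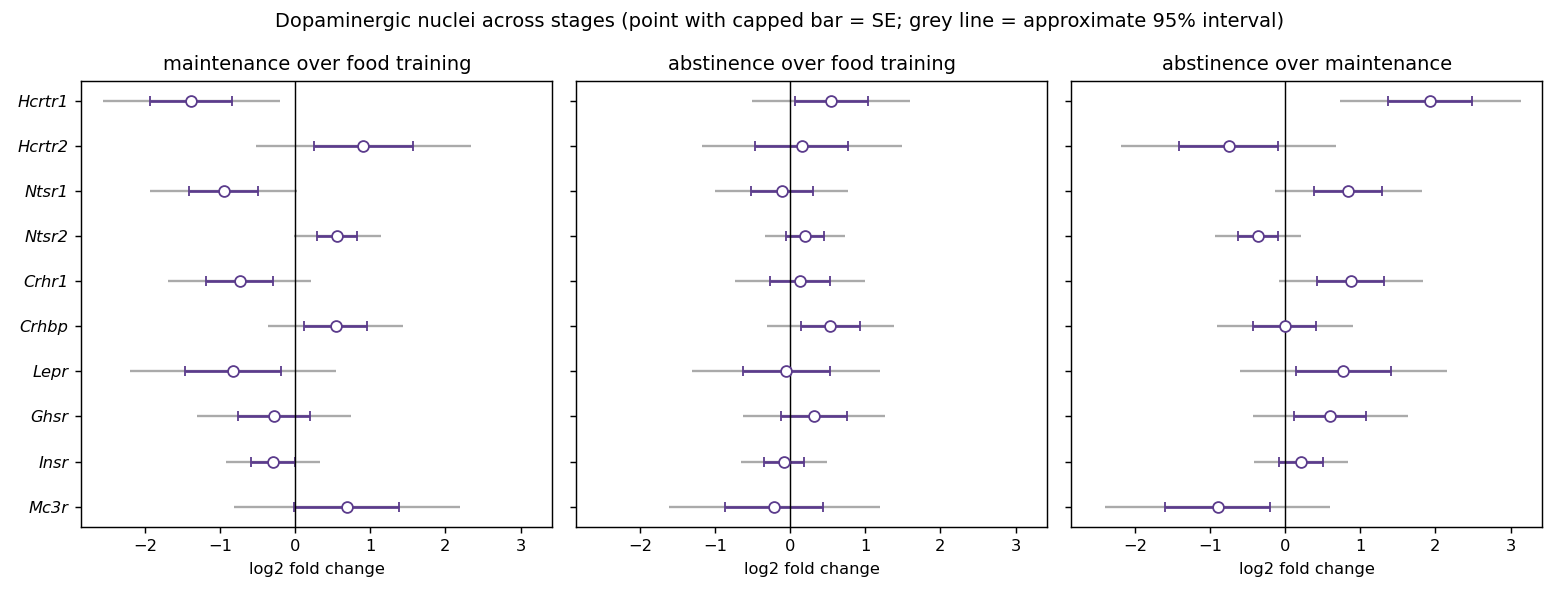
Log2 fold change of each gene between stages in dopaminergic nuclei, with the SE as capped bars and the approximate 95% interval in grey; the panels show maintenance over food training, abstinence over food training, and abstinence over maintenance. Hcrtr1 lies at -1.38, 0.55 and 1.93 in the 3 panels, and no gene passed the adjusted threshold in edgeR's test.

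Of the 65 pathway genes, 9 ligands, 10 related receptors and partners, 7 leptin signalling, 19 insulin signalling and 9 Gq and Gs coupling genes were tested between stages, and none of those passed edgeR's test. The lowest p-values for maintenance against food training were those of Akt2, a kinase downstream of the insulin receptor (10.4 mean CPM against 33.0, log2 -1.67, edgeR adjusted p = 0.190), and Sh2b1, an adaptor of leptin and insulin receptors (2.86 against 16.4 mean CPM, log2 -2.53, edgeR adjusted p = 0.306). For abstinence against maintenance they were Pik3r2, a regulatory subunit of the insulin-activated lipid kinase (36.1 against 6.73 mean CPM, log2 2.43, edgeR adjusted p = 0.264), and Sh2b1 (log2 2.83, edgeR adjusted p = 0.277). In the test of any difference among stages Akt2 and Pik3r2 came first, with edgeR adjusted p of 0.415 and 0.475. For abstinence against food training they were Hcrt and Stat5b, a transcription factor downstream of cytokine receptors, both with an edgeR adjusted p of 0.999974. Stat5b was at 22.4, 11.2, 39.4 and 50.3 CPM in abstinence replicates 2, 3, 1 and 4 and at 4.86 to 24.0 CPM after food training. At an unadjusted p under 0.05 there were 8, 2, 5 and 7 of the tested ones for maintenance against food training, abstinence against food training, abstinence against maintenance and any difference, beside the 2215, 819, 1890 and 1496 of 19060 genes given above.

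Across all 15 libraries the genes differed in what they varied with. Among 12892 genes with a mean of at least 100 counts, the most alike by Pearson's r of log2 CPM were Chl1, a neural adhesion molecule, and Chrna4, a nicotinic receptor subunit, for Ntsr1 (both 0.959). For Ntsr2, Enpp2, the gene of autotaxin, had 0.968. The most alike were Slc27a3 and Dnajc25 for Hcrtr1 (0.92 and 0.874), and Mfsd1 and Siae for Hcrtr2 (0.906 and 0.896). Crhr1 was most like Colgalt2 and Entpd6 (0.944 and 0.894), and for Crhbp, Rnf103 had 0.936. Lepr was nearest to Atic and Trib3 (0.893 and 0.883), Ghsr to Insig1 and Calr (both 0.918), Insr to Hdc and Plekho2 (0.891 and 0.887), and Mc3r to Calb1, a calcium buffer, and Prima1 (0.921 and 0.914). These values are descriptions over libraries that differ in population, stage, depth and base composition together.

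Within the 11 dopaminergic libraries, Hcrtr1 and Crhr1 varied together (r = 0.798), and both ran against Mc3r (r = -0.748 and -0.687). Food-trained replicate 3 was among the lowest for both and the highest for Mc3r. Ntsr1 and Ntsr2 had r = -0.898 over 15 libraries and -0.166 over the 11 dopaminergic ones, where the split between the populations does not enter. For Crhbp and Ghsr r was 0.897 over 15 and 0.596 over 11 libraries. These correlations are descriptions over libraries that differ in stage, depth and base composition.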

How the data were processed

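The authors deposited whole-number counts per gene for 15 libraries. The submitters' processing notes name Trim Galore 0.6.7, cutadapt 1.18, STAR 2.7.10a, StringTie 2.1.5 and DESeq2 1.38.3, and the builds mm10 and GRCm38; the role of each tool, the annotation and any use of strand are not given in the sources used here. Low-input libraries are amplified and these counts carry no molecular identifiers, so precision from counts covers counting error only. A second deposited table, named as normalized, held the same raw counts for 10 dopaminergic libraries and was not used.

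The tests ran under edgeR 4.0.16 (filterByExpr, TMM, quasi-likelihood F-test) in R 4.3.3; the alternatives used DESeq2 1.42.0 and limma 3.58.1. The 8 food-trained libraries gave the population comparison (19786 genes tested), and all 11 dopaminergic libraries the stage comparisons (19060 genes). Steps were checked on simulated data. Replicates are separate pools of 2 mice, and p-values measure the spread between pools. A fold against libraries all at 0 used a floor of 3 counts per library, averaged over the group. GC slopes used 8174 genes with a mean log2 CPM over 4. Coordinates and lengths came from GENCODE M21. Libraries were treated as unpaired. The sources used here do not say whether same-numbered libraries share mice, and the check of their deviations cannot settle it. Named were all 10 genes, pathway genes past the threshold, or the 2 with the lowest p where fewer than 2 passed, and the 2 most alike genes of each, of which some are not reported here. The genes and lists were chosen with earlier results of these data known.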

Additional observations from a re-analysis of the deposited data

Results flagged for a closer look

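In 4 of 30 groups of 4 libraries, 1 library lay farther from the others than Dixon's 95% limit allows; chance alone gives such a library in about 1 in 20 groups. Hcrtr1 was at 11.16 CPM in food-trained dopaminergic replicate 3, where the other 3 libraries held 44.07 to 45.46. Hcrtr2 was at 16.11 CPM in abstinence replicate 4, against 40.02 to 42.29 in the others. Lepr was at 42.38 CPM in food-trained dopaminergic replicate 1, against 19.91 to 23.07. Insr was at 87.2 CPM in non-dopaminergic replicate 3, against 76.62 to 77.51. The maintenance group, with 3 libraries, was not examined in this way.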

How the results depend on the processing

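In the population comparison the sign of each gene's difference held in all 160 refits, of which 139 stayed on the same side of the threshold, 12 lost it and 9 gained it. The count of called genes was 5, and from 2 (without non-dopaminergic replicate 1 or 3, Ntsr1 and Ntsr2) to 7 (without dopaminergic replicate 3, with Crhr1 and Hcrtr1) when 1 library was left out; without non-dopaminergic replicate 2 it was 3. It was 7 with DESeq2 or a minimum of 10 counts in every library, and 6 with all 15 libraries in one fit. Over all genes the population comparison gave 2534 calls, 3883 with DESeq2, 4266 with limma-voom, 1643 with the minimum of 10 counts and 775 with the replicate block. The labels do not say whether same-numbered libraries share mice. The correlation of same-numbered deviations was -0.0765 to 0.0689, and 0.0211 to 0.0689 between the food-trained populations. So few libraries cannot settle whether they are paired. With the replicate block 4 of the 10 genes were called in the population comparison (Lepr was lost, edgeR adjusted p = 0.149) and 0 between stages. Between stages the count stayed at 0 except for 1 with DESeq2 for abstinence against maintenance. DESeq2 also called more genes overall than edgeR: 992 against 25, 145 against 0, 792 against 34 and 358 against 16, and the minimum of 10 counts gave 109, 0, 69 and 41. Of differences not called, 4 of 160, 15 of 170 and 11 of 160 refits turned sign in the 3 pairs. For abstinence over maintenance, Crhbp was 0.0206 without a filter, 0.0146 with only the 2 groups and 0.28 with an added term, where Ntsr1 was -0.62 and Ntsr2 0.41, and Hcrtr2 was 0.0621 with limma-voom. For abstinence over food training, Ghsr was -0.0215 and Mc3r 0.37 with limma-voom, and with the replicate block Mc3r was 0.0678 and Ntsr1 0.0058. For maintenance over food training with the added term, Ntsr1 was 0.51 and Ntsr2 -0.22. Leaving out 1 library each gave, for abstinence over food training, -0.17 to 0.27 (Lepr), -0.243 to 0.0654 (Insr), -0.17 to 0.36 (Crhr1), -0.51 to 0.71 (Mc3r), -0.44 to 0.38 (Ntsr1) and -0.0839 to 0.63 (Ghsr). It gave -0.52 to 0.0326 (Ghsr) and -0.35 to 1.41 (Hcrtr2) for maintenance over food training, and -1.25 to 0.51 (Hcrtr2) and -0.26 to 0.16 (Crhbp) for abstinence over maintenance. The added term is shared by the maintenance libraries and non-dopaminergic replicate 2, which alone sets its size, so those values carry that library's deviation from its group. The cause of the other turns was not tested. CPM by total counts moved 0 of 40 levels by more than 1 SD. Each gene had 97 or more counts in each library, and 3 or 4 pools a group limit the precision.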

Other observations

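Hcrt, the gene of the orexin precursor, had an uneven presence outside the population comparison. Its counts were 134, 59 and 883 in the 3 maintenance libraries and 2230, 0, 0 and 0 in abstinence replicates 1 to 4, with 0 in all 4 food-trained dopaminergic libraries. In the non-dopaminergic libraries it had 1275, 18, 1030 and 27. Within a group, libraries at 0 or a few counts stood beside libraries with many. Nts, the neurotensin gene, was at 7.45 to 30.7 CPM in food-trained dopaminergic, 0 to 11.9 in maintenance, 9.16 to 18.4 in abstinence and 12.9 to 34.3 in non-dopaminergic libraries. Crh was at 5.80 to 17.4, 12.3 to 53.9, 4.55 to 30.7 and 3.83 to 7.84 CPM in the same order. The Hcrt, Nts and Crh values were chosen after they were seen.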
